A study of Mus musculus with 12 samples.

Results

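Fibroblastic reticular cells are the stromal fibroblasts that build the conduit network of a lymph node. They form the scaffold of the T cell zone, make the matrix of the reticular fibres, and secrete chemokines and survival factors for lymphocytes. The 8 genes described here, Pdpn, Flrt3, Il33, Pdgfra, Pdgfrb, Grem1, Il7 and Thy1, are genes that these cells express, and they were taken by name from a deposited table of 55487 mouse genes measured in whole lymph nodes. All 8 were present, each under 1 Ensembl ID, and all 8 passed the filter on low counts that left 17301 genes for testing.

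The study sequenced lymph node mRNA in 12 libraries, 3 in each of 4 groups. In the T NDE group, mice had B16F10 cells, a mouse melanoma line, placed in the tongue, and the nociceptive nerves that supply the tumour-draining node were inhibited. The T NC group had the tongue tumour with those nerves left alone, the NT NDE group had the nerves inhibited with no tumour, and the NT NC group had neither. Nociceptive nerves are the sensory fibres that report pain. The labels give the 3 libraries of a group as biologically independent repetitions. They give no strain, sex, age, time after inoculation or method of inhibition, and do not say whether a library came from 1 node or from several mice. Library totals ran from 16862953 to 24467873 counts, so Pdpn, the member with the fewest reads, had 121 to 302 counts in a library. Transcripts of salivary gland, a neighbour of the nodes of the neck, made up 4.20% of the reads of T NDE replicate 3, 3.03% of NT NC replicate 3 and 0.158% of NT NC replicate 2, against at most 0.00694% in the other 9 libraries.

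Several of the 8 are also made by other cells of a node. In mice, Thy1 also covers T cells and Pdpn also marks lymphatic endothelium, Il33 is known from several stromal and endothelial cells, and Pdgfrb is shared with pericytes. In RNA of a whole node, fewer cells of a type and less RNA per cell cannot be told apart.

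Pdpn, Flrt3 and Il33 shared a pattern of group means, lowest in the group that had both the tumour and the nerve inhibition and highest in the groups that had only one of the 2. Grem1 and Pdgfrb had the same order of means, but their libraries overlapped in every pair of groups. Only for Flrt3 was every T NDE library, at most 18.4 CPM, below all others, at least 19.6 CPM. The T NDE libraries of Pdpn overlapped NT NC, and those of Il33 overlapped both NT NC and T NC. Pdpn and Flrt3 stood at 0.66-fold and 0.67-fold in T NDE nodes relative to T NC nodes, while in nodes without a tumour the nerve inhibition went with higher levels. The other 5 genes, both PDGF receptors among them, had overlapping libraries in every pair of groups. No member passed an adjusted p of 0.05 in the edgeR test over all genes, and with DESeq2 Pdpn and Flrt3 did.

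Pdpn encodes podoplanin, a membrane mucin that binds CLEC-2 on dendritic cells and platelets and sets the contractile tension of reticular cells. The gene lies on chromosome 4, at 143267431 to 143299564 on the minus strand of mm10. Flrt3 encodes a leucine-rich repeat adhesion protein that binds latrophilins and Unc5 receptors, and lies on chromosome 2 at 140650914 to 140671469, minus strand, inside Macrod2 on the opposite strand, with no shared exon. Il33 encodes an alarmin of the interleukin-1 family that is stored in the nucleus and signals through the ST2 receptor on group 2 innate lymphoid cells and regulatory T cells, and lies on chromosome 19 at 29925114 to 29960718, plus strand. These 3 genes alone of the 8 had non-overlapping libraries in some pairs of groups. The 250 bases before each of their starts in the RefSeq annotation of GRCm38.p6 are therefore shown, 5′ to 3′ on the gene's strand. The TATA box letters TATAAA are in capitals. The first sequence is from chr4:143299565-143299814, the second from chr2:140671477-140671726, and the last 2 belong to separate starts of Il33, at chr19:29924863-29925112 and chr19:29945540-29945789.
Pdpn: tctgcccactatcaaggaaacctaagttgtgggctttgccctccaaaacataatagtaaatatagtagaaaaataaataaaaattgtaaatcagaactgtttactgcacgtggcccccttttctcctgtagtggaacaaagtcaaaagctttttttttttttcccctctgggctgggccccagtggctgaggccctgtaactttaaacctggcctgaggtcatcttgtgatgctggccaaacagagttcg
Flrt3: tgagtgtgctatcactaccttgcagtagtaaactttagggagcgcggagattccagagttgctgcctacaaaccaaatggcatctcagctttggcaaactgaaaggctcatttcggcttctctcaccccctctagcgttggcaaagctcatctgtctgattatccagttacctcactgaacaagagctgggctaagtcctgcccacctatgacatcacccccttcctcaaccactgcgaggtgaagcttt
Il33, first start: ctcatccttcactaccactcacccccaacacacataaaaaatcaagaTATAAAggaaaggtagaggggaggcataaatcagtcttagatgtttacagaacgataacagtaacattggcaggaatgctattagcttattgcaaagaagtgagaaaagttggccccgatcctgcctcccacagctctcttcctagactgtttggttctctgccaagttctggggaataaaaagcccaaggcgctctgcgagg
Il33, second start: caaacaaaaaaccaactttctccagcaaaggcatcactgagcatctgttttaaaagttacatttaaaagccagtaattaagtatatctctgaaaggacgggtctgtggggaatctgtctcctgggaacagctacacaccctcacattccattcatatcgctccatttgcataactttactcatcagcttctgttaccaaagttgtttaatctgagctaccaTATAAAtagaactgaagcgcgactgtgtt

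TATAAA was found once before each start of Il33, 203 bases upstream of the first and 29 bases upstream of the second, and not before Pdpn or Flrt3. Of 32851 promoters of that length, 12.4% hold it on either strand. The windows of all 3 genes were also searched on both strands for the AP-1 letters TGANTCA (in 6.75% of promoters), the gamma-activated letters TTCNNNGAA (7.02%), the interferon-stimulated response element (2.98%) and the NF-kB consensus (7.25%). None of these was found in them. Sequences for Grem1 and Pdgfra were matched in the same table and held none of the 5 motifs. Il7, Thy1 and Pdgfrb were not among the sequences reported.

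Levels between genes were compared as CPM, counts scaled to library size by the TMM method, per kilobase of merged exons. Thy1 was highest, at 77.1 ± 7.77 CPM per kilobase, followed by Il33 at 29.7 ± 4.66 (SD over all 12 libraries here and below). Grem1 at 8.89 ± 1.56 and Pdgfrb at 8.62 ± 1.44 overlapped, with Grem1 higher in 8 of 12 libraries. Pdpn at 5.01 ± 0.98, Pdgfra at 4.91 ± 0.64 and Flrt3 at 4.40 ± 1.01 also overlapped, and Il7 was lowest at 2.07 ± 0.30 in every library. With the longest transcript as the length, Pdgfra reached 7.20 and stood above Flrt3 at 5.38 and Pdpn at 5.01. The levels of a gene varied across libraries by a coefficient of variation of 10.1% for Thy1 to 23.0% for Flrt3, and Pdpn varied by 19.5% over all libraries but by 9.58% within groups, close to the 7.39% that counting error alone gives at its depth.

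Pdpn had 7.95, 6.14 and 7.20 CPM in T NDE libraries, 12.4, 10.5 and 9.53 CPM in T NC libraries, 10.03, 10.7 and 10.4 CPM in NT NDE libraries and 8.16, 7.92 and 8.28 CPM in NT NC libraries. The T NC and NT NDE libraries were the 6 highest, and no T NDE library reached any of them. The group means were 7.10 ± 0.91 CPM in the T NDE group, 10.8 ± 1.43 in T NC, 10.4 ± 0.35 in NT NDE and 8.12 ± 0.18 in NT NC (SD, n = 3 each).

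Flrt3 had 13.5, 15.5 and 18.4 CPM in T NDE libraries, 28.1, 20.1 and 23.0 CPM in the T NC group, 24.99, 21.9 and 31.1 CPM in the NT NDE group and 19.6, 20.5 and 20.3 CPM in the NT NC group. The 3 T NDE libraries were the lowest of all 12, and T NC overlapped NT NC through replicate 2 of T NC. Flrt3 averaged 15.8 ± 2.48 CPM in the T NDE group, 23.7 ± 4.02 in T NC, 26.0 ± 4.70 in NT NDE and 20.1 ± 0.47 in NT NC (SD, n = 3 each).

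Il33 had 64.7, 79.8 and 84.5 CPM in T NDE libraries, 91.3, 87.5 and 83.3 CPM in the T NC group, 87.6, 93.8 and 121 CPM in the NT NDE group and 77.4, 77.7 and 79.8 CPM in the NT NC group. NT NDE replicate 3 was the highest library and T NDE replicate 1 the lowest, and the T NDE and T NC ranges overlapped. The means were 76.3 ± 10.4 CPM in the T NDE group, 87.4 ± 4.02 in T NC, 101 ± 17.7 in NT NDE and 78.3 ± 1.34 in NT NC (SD, n = 3 each).

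**Figure D1:**
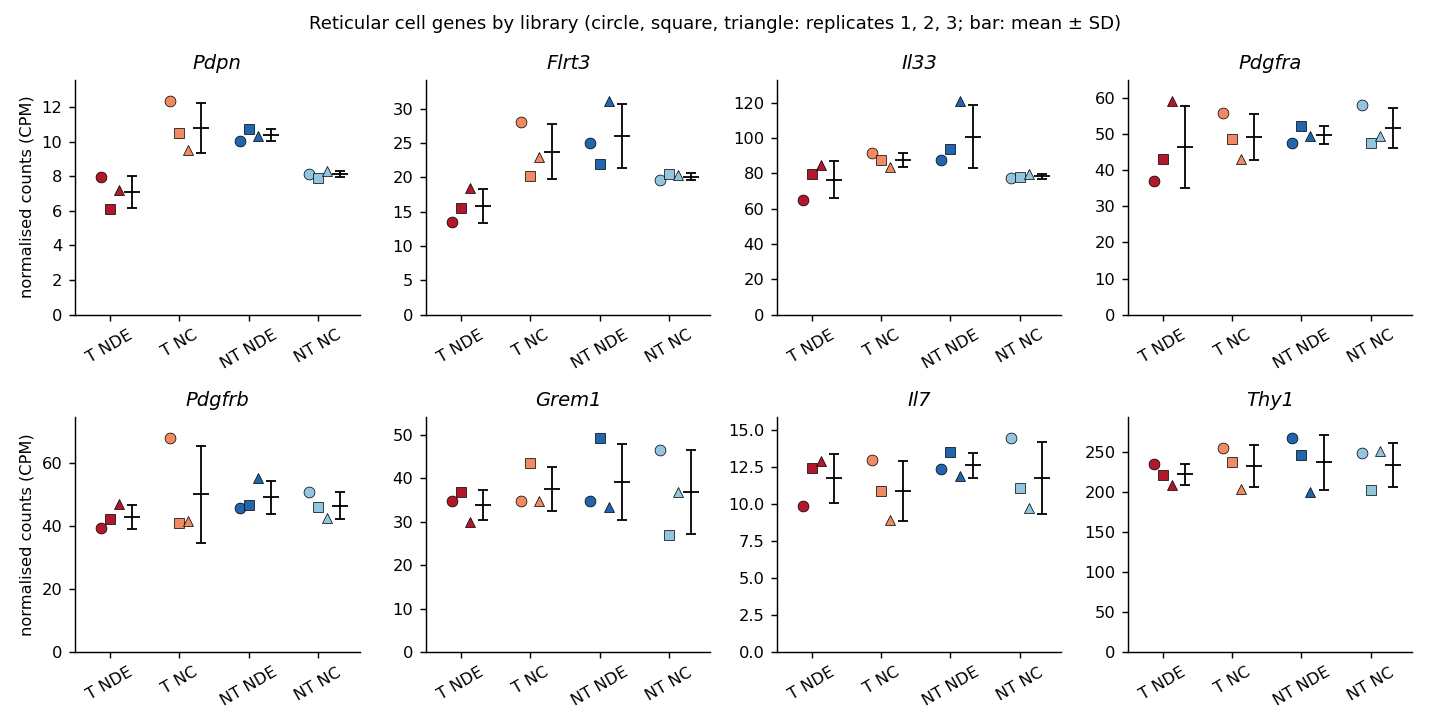
TMM-scaled CPM of each gene (y axis, linear, from 0) in the 4 groups (x axis), with 1 marker per library, its shape giving the replicate number, and a bar for mean ± SD, n = 3. Pdpn, Flrt3 and Il33 have their highest means in T NC and NT NDE, and the T NDE libraries of Flrt3, 13.5 to 18.4 CPM, are the lowest of the 12, while the groups of the other 5 genes overlap.

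The comparison of T NDE with T NC nodes asks what nerve inhibition does in tumour-draining nodes. Pdpn differed by a log2 fold change of -0.61 ± 0.14 (SE, edgeR adjusted p = 0.447), the 20th smallest p of 17301 genes. Flrt3 differed by -0.59 ± 0.15 (SE, edgeR adjusted p = 0.583), and every T NDE library lay below every T NC library for both genes. Il33 differed by -0.19 ± 0.11 (SE, edgeR adjusted p = 0.883), and by -0.095 without T NDE replicate 1. So 2 of 8 members had lower, non-overlapping libraries, against 4.6% of all tested genes in that direction, and 0 of 8 passed the adjusted threshold, as did 0% of all genes. At an unadjusted p under 0.05, 2 of 8 members were lower, against 3.07% of all genes. DESeq2 called Pdpn alone of the 8, with a log2 fold change of -0.62 ± 0.15 and an adjusted p of 0.0255, and called 44 genes in all. The median log2 fold change of the 8 was -0.17, beside 0.01 over all genes.

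In nodes without a tumour the same inhibition went with higher values. From NT NDE against NT NC, Il33 differed by a log2 fold change of 0.36 ± 0.11 (SE, edgeR adjusted p = 0.321), Pdpn by 0.35 ± 0.14 (edgeR adjusted p = 0.407) and Flrt3 by 0.37 ± 0.15 (edgeR adjusted p = 0.422). All 3 had every NT NDE library above every NT NC library, so 3 of 8 members did not overlap upward, against 9.71% of all genes, and 0 of 8 passed the adjusted threshold, as did 0% of all genes. At an unadjusted p under 0.05 the 3 were higher, against 5.67% of all genes. DESeq2 called none of the 8 and 138 genes in all. Leaving out NT NDE replicate 3, the highest library of Flrt3 and Il33, brought Flrt3 to 0.22 and Il33 to 0.21.

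T NC against NT NC asks what the tumour does with nerves left alone. Pdpn differed by 0.41 ± 0.14 (SE, edgeR adjusted p = 0.494), Flrt3 by 0.24 ± 0.15 (edgeR adjusted p = 0.706) and Il33 by 0.16 ± 0.11 (edgeR adjusted p = 0.743). Pdpn and Il33 had non-overlapping libraries, 2 of 8 members against 7.78% of all genes, and 0 of 8 passed the adjusted threshold, as did 0% of all genes. At an unadjusted p under 0.05 the edgeR test gave 1 of 8 members, Pdpn, against 4.58% of all genes, and DESeq2 called none of the 8 and 40 genes in all. Without T NC replicate 1 the difference of Flrt3 was 0.10.

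T NDE against NT NDE sets the tumour effect in nodes whose nerves were inhibited. Flrt3 differed by -0.72 ± 0.15 (SE, edgeR adjusted p = 1.00), the 2nd smallest p of 17301 genes, Pdpn by -0.55 ± 0.14 (edgeR adjusted p = 1.00), the 8th smallest, and Il33 by -0.40 ± 0.11 (edgeR adjusted p = 1.00). All 3 had every T NDE library below every NT NDE library, 3 of 8 members against 4.33% of all genes. No member passed the adjusted threshold, beside 0.00578% of all genes, and 3 of 8 were lower at an unadjusted p under 0.05, beside 2.05%. DESeq2 called Flrt3 (-0.71 ± 0.16, adjusted p = 0.0112), among 17 genes in all. Without NT NDE replicate 3 the difference of Il33 was -0.25. These comparisons share their groups in pairs, so their values are not separate observations.

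**Figure D2:**
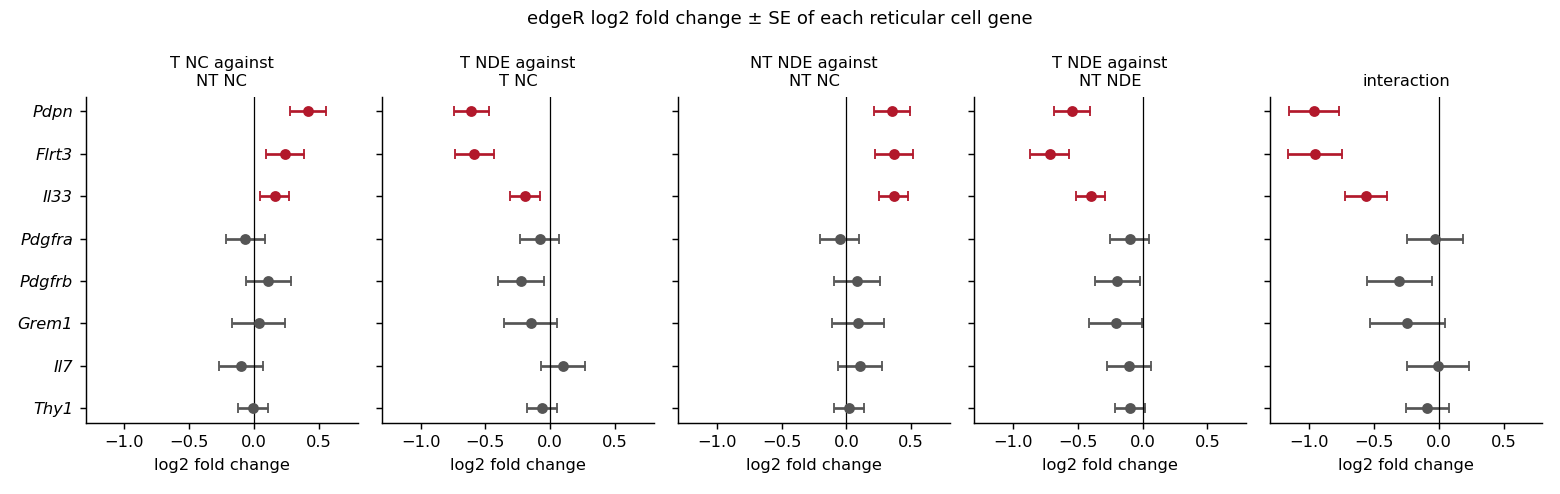
edgeR log2 fold change (x axis) with its SE for each gene (y axis) in the 4 comparisons of groups and in the interaction. Pdpn, Flrt3 and Il33, in red, lie above 0 in T NC against NT NC and in NT NDE against NT NC. They lie below 0 in the other panels, with Pdpn at -0.96 in the interaction. The points of the 5 genes in grey run from -0.30 (Pdgfrb in the interaction, SE 0.25) to 0.11.

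The interaction term is the nerve effect in tumour mice minus the nerve effect in mice without a tumour. It was -0.96 ± 0.19 for Pdpn (SE, edgeR adjusted p = 0.462), -0.96 ± 0.21 for Flrt3 (edgeR adjusted p = 0.501) and -0.56 ± 0.16 for Il33 (edgeR adjusted p = 0.622). By p these were the 6th, 13th and 109th of 17301 genes. All 8 members had an interaction below 0, beside 48.9% of all genes, and 3 of 8 had an unadjusted p under 0.05 in that direction, beside 3.95%. The median was -0.27 over the 8 and 0.01 over all genes. No member, and 0% of all genes, passed the adjusted edgeR threshold. DESeq2 called Pdpn at an adjusted p of 0.00518 and Flrt3 at 0.0139, gave Il33 0.155, and called 43 genes in all. Limma-voom called no gene in any of the 7 comparisons. The 9 libraries low in salivary transcripts keep only replicate 1 of NT NC and replicates 1 and 2 of T NDE, so the NT NC group has no spread there. In them the interaction was -0.97 for Pdpn, -1.12 for Flrt3 and -0.66 for Il33, and T NDE against T NC was -0.62 for Pdpn and -0.71 for Flrt3. Across the alternative settings the sign of these 3 genes changed in 0 of 453 values over the 7 comparisons. The settings refit the same counts, so these values are not separate observations.

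**Figure D3:**
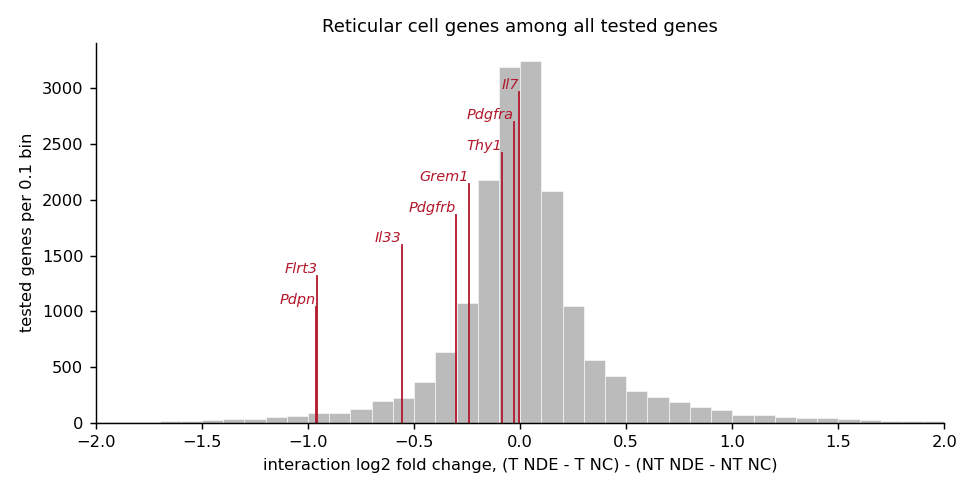
Number of tested genes (y axis) by interaction log2 fold change (x axis, bins of 0.1, 17301 genes tested, axis cut at -2 and 2), with a line at each member. Pdpn and Flrt3 stand at -0.96, a value at or below which 1.94% and 1.99% of genes lie, and Il33 at -0.56, where 5.16% do.

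Averaged over tumour status, nerve inhibition gave no adjusted p under 0.05 for any of the 8 in edgeR, where 0.0983% of all genes passed. Averaged over nerve status, the tumour gave none either, beside 0% of all genes. Flrt3 alone had an unadjusted edgeR p under 0.05 in the second, at a log2 fold change of -0.24, 1 of 8 members lower beside 2.24% of all genes.

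The other 5 genes, which encode growth factor receptors and secreted and surface proteins, separated no pair of groups by their RNA. Grem1 and Pdgfrb still had their lowest mean in T NDE and their highest means in T NC and NT NDE. Pdgfra, the receptor for PDGF-A that is commonly used to recognise fibroblasts, had 37.1, 43.1 and 59.1 CPM in the T NDE group, 55.8, 48.6 and 43.0 CPM in the T NC group, 47.5, 52.3 and 49.6 CPM in the NT NDE group and 58.0, 47.5 and 49.4 CPM in the NT NC group. The gene lies on chromosome 5 at 75152292 to 75198215, plus strand, and its lowest and its highest library were both T NDE. Pdgfrb, which binds PDGF-B and PDGF-D, had 39.5, 42.3 and 47.1 CPM in the T NDE group, 67.9, 40.9 and 41.6 CPM in the T NC group, 45.7, 46.6 and 55.2 CPM in the NT NDE group and 51.0, 46.1 and 42.5 CPM in the NT NC group. The gene lies on chromosome 18 at 61045150 to 61085061, plus strand. T NC replicate 1 stood apart at 67.9 CPM, and without it the log2 fold change of T NC against NT NC turned to -0.17, against 0.11 ± 0.18 (SE) with it.

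Grem1, a secreted antagonist of bone morphogenetic proteins, had 34.9, 36.8 and 30.02 CPM in the T NDE group, 34.7, 43.5 and 34.7 CPM in the T NC group, 34.8, 49.2 and 33.3 CPM in the NT NDE group and 46.5, 27.0 and 37.0 CPM in the NT NC group. Il7, the survival cytokine of naive T cells, had 9.82, 12.4 and 12.9 CPM in the T NDE group, 12.9, 10.9 and 8.88 CPM in the T NC group, 12.4, 13.5 and 11.9 CPM in the NT NDE group and 14.4, 11.04 and 9.70 CPM in the NT NC group. Grem1 lies on chromosome 2 at 113746164 to 113758646 and Il7 on chromosome 3 at 7569994 to 7613760, both minus strand, and neither separated any pair of groups. The exons of Il7 overlap the antisense gene Gm16685, to which 1896 counts were assigned in all, and the strand setting of the counting is not given, so the counts of Il7 are uncertain. Thy1, a glycolipid-anchored surface protein (chromosome 9, 44043384 to 44048579, plus strand), had 235, 221 and 209 CPM in the T NDE group, 255, 237 and 203 CPM in the T NC group, 266, 245 and 199 CPM in the NT NDE group and 248, 202 and 251 CPM in the NT NC group. Over the 4 group comparisons and the interaction, the 25 log2 fold changes of these 5 genes ran from -0.30 ± 0.25 (SE, Pdgfrb, interaction) to 0.11, the first at -0.020 without T NC replicate 1, with a smallest edgeR p of 0.230.

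As a ratio within each library, Pdpn over Pdgfra was 0.214, 0.143 and 0.122 in T NDE and 0.222, 0.217 and 0.222 in T NC. It was 0.211, 0.205 and 0.209 in NT NDE and 0.141, 0.167 and 0.168 in NT NC. So T NDE replicate 1 stood with the T NC and NT NDE libraries by this ratio, and the other T NDE libraries with NT NC. The ratio Flrt3 over Pdgfra had its T NDE libraries, at 0.364, 0.359 and 0.312, below the T NC libraries at 0.503, 0.414 and 0.534. NT NDE, at 0.526, 0.418 and 0.628, overlapped NT NC, at 0.338, 0.431 and 0.411, and NT NC also overlapped T NDE and T NC. Il33 over Pdgfra was 1.74, 1.85 and 1.43 in T NDE and 1.64, 1.80 and 1.94 in T NC, which overlap. It was 1.85, 1.79 and 2.44 in NT NDE, above 1.33, 1.64 and 1.61 in NT NC.

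Over the 12 libraries, 24 of the 28 pairs of members had a positive Pearson r of log2 CPM, with a median of 0.31. Il33 and Flrt3 were the closest pair, with r = 0.84 and Spearman's rho = 0.755 (permutation p = 0.0006 for r, adjusted over 28 pairs 0.0168, and adjusted permutation p = 0.0563 for rho). Without the 2 libraries farthest from the median of Il33, r was 0.58, so the relation rests in part on those libraries. From deviations around the group means, r was 0.76 (exact permutation p = 0.044, adjusted 0.205). Pdpn and Flrt3 had r = 0.76 (adjusted permutation p = 0.0606) over the libraries but 0.12 within groups, and Pdpn and Il33 had 0.56 over the libraries and -0.11 within groups. No pair of the 28 passed within groups.

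**Figure D4:**
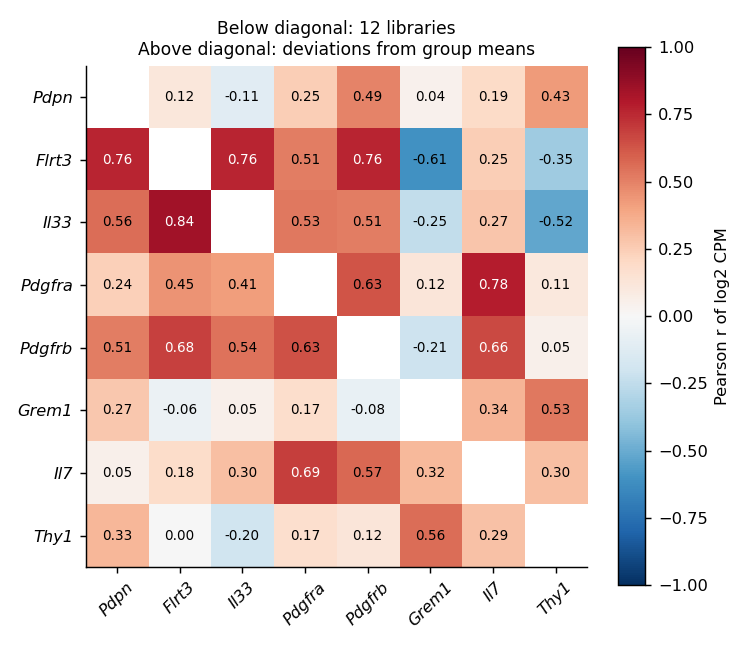
Pearson r of log2 CPM for each pair of genes, below the diagonal over the 12 libraries and above it after subtracting the group means, on a colour scale from -1 to 1. Il33 with Flrt3 is 0.84 below and 0.76 above, while Pdpn with Flrt3 is 0.76 below and 0.12 above.

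By the highest Pearson r over 12 libraries among 13299 named genes with a mean of at least 1 CPM, the genes most like Pdpn were Sorcs1 (r = 0.85), Bloc1s5 (0.85) and Efemp2 (0.84). Snx1 was the closest to both Il33 (0.94) and Flrt3 (0.89), and Thbd and Tgm2 followed for Il33, Ccl12 and Pilrb2 for Flrt3. Trf (0.96), Il13ra1 and Myh10 were the closest to Pdgfra, Htra1 (0.94), Uap1 and Spg21 to Pdgfrb, and Sema6d (0.88), Sept4 and Tcf7l1 to Il7. B4galt7 (0.89), Klhl22 and Ski were the closest to Grem1, and Sit1 (0.91) and Lsm10 were close to Thy1. These values rank genes on the same libraries and carry no test.

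Marker lists of the other cells of a node were set beside the members. The lymphatic endothelial list held 8 markers, Prox1, Lyve1 and Marco among them. Their summed CPM ran from 494 to 898 in T NDE and 602 to 664 in T NC. It ran from 783 to 819 in NT NDE and 596 to 808 in NT NC. Marco had the most counts of the 8 in every library, 5282 beside 377 for Prox1 in T NDE replicate 1, so it weighs most in the sum. Correlations with a list used the mean log2 CPM of its tested genes, not the sum. Pdpn had r = 0.03 with that mean of the lymphatic list over the 12 libraries and Il33 had 0.58, neither passing adjustment over 104 such tests (adjusted permutation p = 0.975 and 0.442). The list's median log2 fold change was 0.14 in T NDE against T NC and -0.09 in the interaction. Thy1 had r = 0.73 with the mean log2 CPM of the T cell markers over the libraries (adjusted permutation p = 0.152) and 0.91 within groups (exact permutation, adjusted p = 0.112). Pdgfra ran against the mean log2 CPM of the B cell markers, with r = -0.93 and rho = -0.92 over the libraries (permutation p = 1e-05, the smallest that the permutations can give, adjusted 0.00104) and -0.94 within groups (exact permutation, adjusted p = 0.0401). Without its 2 farthest libraries r was -0.88. T NDE replicate 3, the library with salivary transcripts and the highest Pdgfra, had the lowest B cell sum, 2984 CPM, and the highest lymphatic and adipocyte sums, 898 and 85.4 CPM. The part of these cell types in the members' values was not tested.

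Among the 13 tested genes of 14 that hold the chemokines and survival factors of reticular cells, 12 were higher in NT NDE than in NT NC nodes, with a median log2 fold change of 0.29, beside 0.0048 over all genes, and 0 past the adjusted edgeR threshold. Cxcl13, the B cell follicle chemokine, was nearest, at 295, 277 and 265 CPM in the NT NDE group and 158, 175 and 189 CPM in the NT NC group. It differed by 0.68 ± 0.12 (SE, edgeR adjusted p = 0.101), and Mfge8 by 0.31 and Icam1 by 0.24. DESeq2 called Cxcl13 (adjusted p = 2.73e-05), as edgeR did without T NDE replicate 1 (adjusted p = 0.00136). The rise was not particular to this list. All 5 tested follicular dendritic cell markers were also higher in NT NDE than in NT NC nodes, with a median of 0.27. Their summed CPM, most of it from Clu, Cr2 and Fcer2a, ran from 2123 to 2236 in NT NDE and 1819 to 1915 in NT NC. Of these markers 0 passed the adjusted edgeR threshold. All 7 B cell markers were higher in NT NDE nodes too, with a median of 0.076. The part of follicular dendritic cells in these values was not tested. In the interaction the median of the chemokine and survival factor list was -0.23, with Cxcl13 at -0.77 ± 0.16 (SE, edgeR adjusted p = 0.501), Bst1 at -0.50 and Mfge8 at -0.43, and DESeq2 called Cxcl13 there (adjusted p = 0.00284). Ccl19 and Ccl21a, which lie among near-identical copies whose reads the counting may have divided, were near 1 CPM in most libraries and reached 45.8 and 11.5 CPM in single T NDE libraries, so the 2 largest values of this list in T NDE against T NC rest on those.

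The 14 matrix genes, which code for the collagens and small proteoglycans of the fibres, all had lower values in T NDE nodes than in T NC nodes. Their median log2 fold change was -0.41, beside 0.01 over all genes, 10 of 14 had an unadjusted edgeR p under 0.05, beside 3.07% of all genes in that direction, and 0 passed the adjusted threshold. Sparc had 200, 227 and 251 CPM in the T NDE group and 324, 277 and 316 CPM in the T NC group, a difference of -0.44 ± 0.11 (SE, edgeR adjusted p = 0.607), with Col3a1 at -0.59 ± 0.17 (edgeR adjusted p = 0.713) and Bgn at -0.35 ± 0.11 (edgeR adjusted p = 0.705). T NC replicate 1 had the highest matrix sum, 2383 CPM, beside 1644 and 1886 CPM in the other T NC libraries, and without it Bgn was at -0.18. DESeq2 called Sparc and Col3a1 (adjusted p = 0.0344 for each). All 14 were also below 0 in the interaction, beside 48.9% of all genes, with a median of -0.40 and Sparc, Dpt and Col3a1 at -0.51, -0.57 and -0.69. In T NC against NT NC, 13 of 14 were higher, with a median of 0.21, beside -0.0069 over all genes, and Fn1, Col3a1 and Col1a2 at 0.66, 0.43 and 0.29 (edgeR adjusted p of 0.494 to 0.621). Without T NC replicate 1, Fn1 was at 0.38 and Col1a2 at 0.18. Pdgfrb had r = 0.81 with the mean log2 CPM of the matrix genes over the libraries (adjusted permutation p = 0.0437), but 0.58 without its 2 farthest libraries, and 0.88 within groups (exact permutation, adjusted p = 0.0401).

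**Figure D5:**
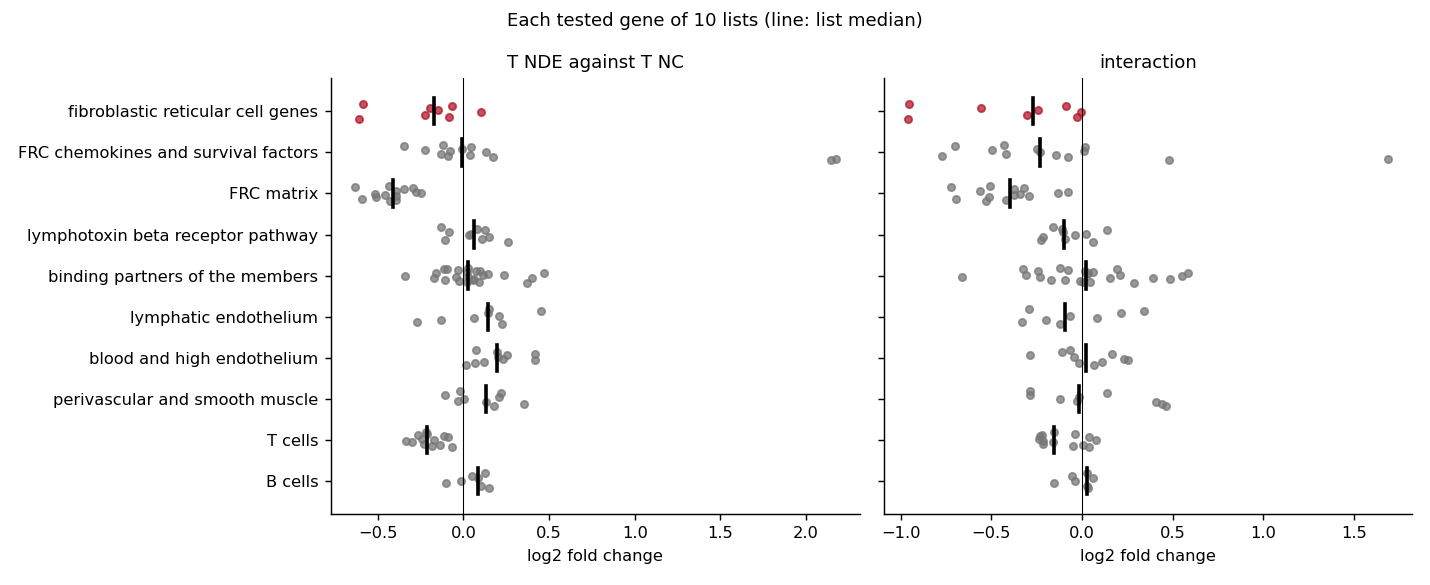
edgeR log2 fold change (x axis) of each tested gene in 10 gene lists (y axis), for T NDE against T NC on the left and the interaction on the right, with a line at each list's median. The matrix list lies wholly below 0 in both panels (medians -0.41 and -0.40), and the reticular cell genes, in red, run to -0.96 in the interaction.

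The 24 ligands, receptors and partners of the members gave 0 genes past the adjusted edgeR threshold in any comparison of groups. Bmp2, a bone morphogenetic protein of the family that gremlin binds, had 15.9, 15.8 and 13.9 CPM in the NT NDE group and 9.45, 10.5 and 8.28 CPM in the NT NC group, a log2 difference of 0.69 ± 0.19 (SE, edgeR adjusted p = 0.252). Bmp4 differed the other way, at -0.89 ± 0.26 (SE, edgeR adjusted p = 0.270), and Itgam, an integrin chain of the Mac-1 receptor, by 0.32. In T NDE against NT NDE, Bmp2 was at -0.69, Itgam at -0.37 and Unc5b, a receptor for Flrt3, at -0.36, each with an edgeR adjusted p of 1.00. Unc5b was at -0.23 without either T NDE replicate 1 or NT NDE replicate 3. The 10 genes of the lymphotoxin beta receptor pathway, which matures these cells, had a median of 0.06 in T NDE against T NC and -0.10 in the interaction, with 0 past the adjusted edgeR threshold.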

How the data were processed

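RNA of whole lymph nodes was sequenced in 12 libraries, with Trizol extraction and Illumina mRNA libraries per the labels' protocols. The authors deposited 1 table of whole-number read counts per gene, not normalized, and HISAT2 2.0 and the mm10 build are named in the submitters' processing notes. The sources used here give no read counter, annotation or strand setting. Gene names came from GENCODE, which matched 55141 of 55487 IDs, and unmatched IDs held at most 0.0548% of a library's counts. Levels are CPM, that is, counts scaled to library size by TMM. Genes were filtered with filterByExpr (minimum count 10, minimum total 15) and tested with the quasi-likelihood test of edgeR 4.0.16 (R 4.3.3), with 1 mean per group over all 12 libraries, 7 contrasts and Benjamini-Hochberg adjustment at 0.05 over 17301 genes. SE is the log2 fold change divided by the root of F. The fit was tested on simulated data.

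Alternatives were DESeq2 1.42.0 (Wald test), limma-voom (limma 3.58.1), DESeq2 size factors, upper-quartile factors, no filter or a filter of 1 CPM in 3 libraries, the replicate number as a block, the libraries of the contrast alone, each library left out, the 9 libraries low in salivary transcripts, and salivary transcripts as a covariate. Correlations used log2 CPM with a prior count of 2 and 100000 permutations, or the 1296 arrangements within groups. The members, the gene lists and the tests were chosen with earlier results of these data known. The named genes are the 8 members, the 3 genes of smallest p in each other list described in a comparison, and the 3 genes most like each member, of which 1 is not reported here. Where nothing shows separate mice, p-values measure only the spread between these libraries, which may be technical. Precision is limited by 3 libraries a group.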

Additional observations from a re-analysis of the deposited data

Results flagged for a closer look

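Pdpn drew attention because its libraries did not overlap in opposite directions for nerve inhibition with and without a tumour, and likewise for the tumour effect with and without nerve inhibition. Its interaction was -0.96 on the log2 scale (-0.9616), with an edgeR adjusted p of 0.462. Flrt3 did so for nerve inhibition, with an interaction of -0.96 (-0.9561; edgeR adjusted p = 0.501), and Il33 for the tumour effect, with -0.56 (-0.5588; edgeR adjusted p = 0.622). The difference was tested by the interaction term in each case and did not pass in edgeR, while DESeq2 called Pdpn and Flrt3.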

How the results depend on the processing

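No member was called in any edgeR or limma-voom setting, each library left out in turn included (0 to 0 members). DESeq2 called 1 member in T NDE against T NC, 1 in T NDE against NT NDE and 2 in the interaction. The signs of Pdpn, Flrt3 and Il33 changed in 0 of 453 alternative values, and those of the other 5 in 72 of 755. Those genes were singled out from these same counts, and values near 0 change sign more easily, so this comparison is not a test. With each library left out, the interaction ran from -1.05 to -0.85 for Pdpn, -1.08 to -0.81 for Flrt3 and -0.65 to -0.41 for Il33. Pdgfrb in T NC against NT NC reversed to -0.17 without T NC replicate 1, of a range to 0.24. It also turned to -0.010 in the 9 libraries low in salivary transcripts, which keep only replicate 1 of NT NC. The cause was not tested.

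One pair of members passed by Pearson r over the 12 libraries, and 0 did from deviations around group means, in the 9 libraries low in salivary transcripts or without the 2 farthest libraries. Genes called in all went from 0 to 40 (T NC against NT NC), 0 to 44 (T NDE against T NC), 0 to 138 (NT NDE against NT NC), 0 to 28 (T NDE against NT NDE), 0 to 66 (tumour averaged), 0 to 130 (nerve inhibition averaged, 17 in the test as reported) and 0 to 43 (interaction).

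Of 18 same-numbered pairs of libraries, 3 correlated above 0.1 (range -0.14 to 0.64 over 15112 genes). The highest were T NDE with NT NC, at 0.64 for replicate 3, where both libraries hold salivary transcripts, and 0.38 for replicate 1. Pairs with different numbers were not compared, so this check cannot exclude a pairing by replicate number. With the replicate block 0 members were called, and 3 genes in NT NDE against NT NC, 3 in T NDE against NT NDE, 1 in the averaged nerve effect and 1 in the interaction.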

Other observations

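Summed T cell markers had lower means in the groups with nerve inhibition, but the libraries overlapped. They ran from 1611 to 1796 CPM in T NDE, 1786 to 2094 in T NC, 1617 to 1881 in NT NDE and 1702 to 2034 in NT NC. All 13 T cell genes had lower values in T NDE than in T NC nodes, with a median log2 fold change of -0.21, 8 of 13 at an unadjusted edgeR p under 0.05 (3.07% of all genes in that direction) and 0 past the adjusted threshold. Cd6 was at -0.34, Cd2 at -0.23 and Trac at -0.27 (edgeR adjusted p of 0.620 to 0.752). In NT NDE against NT NC, 12 of 13 were lower, with a median of -0.12, beside 0.0048 over all genes. Of the 13, 1 was lower at an unadjusted edgeR p under 0.05, where 1796 of 17301 genes passed in either direction. The adjusted edgeR threshold was passed by 0 of 13 and by 0% of all genes. In T NDE against NT NDE the median was -0.041, with 9 of 13 lower and 0 at an unadjusted edgeR p under 0.05. In T NDE against T NC all 10 blood and high endothelial markers went the other way, with a median of 0.20, beside 0.0083 over all genes, and 0 past the adjusted threshold. Of the remaining lists in T NDE against T NC, B cell, perivascular, follicular dendritic cell and Schwann cell markers had medians of 0.09, 0.13, 0.08 and 0.22, adipocyte and skeletal muscle markers 0.57 and -0.27, and salivary gland markers 8.22, which T NDE replicate 3 carries. No gene of these lists passed the adjusted edgeR threshold.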
